A study of Rattus norvegicus with 9 samples.

Results

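The genes of heme synthesis and mitochondrial iron import are described here in rat bone from the skull and the limb. The group holds 9 genes: Alas1, Alas2, Alad, Uros, Urod, Cpox, Fech, Slc25a37 and Tfrc. Members were found as the probe sets whose annotation names 1 of these genes and no other. This gave 11 of the 31042 probe sets tested, and 9 of the 14217 genes that the arrays measured with a probe set of their own. Uros and Tfrc had 2 probe sets each. No probe set that names several genes included a member.

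Basal expression was measured in male CD rats weighing 110 g, to ask whether bones of different sites differ. The skull group held 4 arrays of calvaria (the vault of the skull) and the limb group 5 arrays of ulna (a long bone of the forelimb), with no treatment in either group. The study's methods state that soft tissue and the sutures or epiphyses were cleared away, and that each RNA extract came from several rats, so p-values here measure the spread between pools of rats. The tissue field of ulna 1, 2, 3 and 4 names the calvaria, against their titles and source names, while that of ulna 5 names limb bone. The limb gene Hoxa9 read 69.1, 77.7, 61.7, 79.0 and 60.4 scaled intensity units on ulna 1 to 5. On calvaria 1 to 4 it read 2.17, 4.8, 1.82 and 2.45, so all 5 ulna arrays stood together on this gene. Samples were therefore grouped by title.

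Heme is built by a chain of enzymes that begins and ends in the mitochondrion. An aminolevulinate synthase makes the first committed compound from glycine and succinyl-CoA, enzymes in the cytosol join and shape the ring, and ferrochelatase inserts iron back in the mitochondrion. Alas1 is the synthase of most tissues, whereas Alas2 is that of red cell precursors, whose demand for heme is by far the greatest in the body. Those precursors lie in the marrow, take up iron through the transferrin receptor Tfrc, and carry it into the mitochondrion through Slc25a37 (mitoferrin-1), the erythroid counterpart of Slc25a28 (mitoferrin-2).

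Promoter sequences were looked at because the members moved together. The RefSeq promoter table of the GRCr8 assembly gave windows of 300 bases, from 250 before to 50 after the annotated start, for 7 of the 9 genes. Cpox and Slc25a37 were not in it. The windows of Alas2 and Uros lay 4800 and 955 bases inside their RefSeq genes and were left aside, which left 5 windows at the edge of a gene. The enzyme with the smallest difference between the sites, Alas1, and the one with the largest among the enzymes with such a window, Alad, are shown. Both are on the minus strand and are written 5′ to 3′. In Alas1, chr8:115768635-115768892, capitals mark a match to the CACC letters and, from 2 bases before to 8 bases after the start, a match to the NRF1 letters. In Alad, chr5:80987902-80988151, capitals mark 2 overlapping CACC matches read on the opposite strand.
Alas1: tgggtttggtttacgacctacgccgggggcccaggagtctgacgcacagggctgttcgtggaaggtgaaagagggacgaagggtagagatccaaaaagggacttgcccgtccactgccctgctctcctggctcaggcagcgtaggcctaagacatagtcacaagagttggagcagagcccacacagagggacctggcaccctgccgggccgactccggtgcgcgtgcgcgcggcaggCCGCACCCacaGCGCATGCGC
Alad: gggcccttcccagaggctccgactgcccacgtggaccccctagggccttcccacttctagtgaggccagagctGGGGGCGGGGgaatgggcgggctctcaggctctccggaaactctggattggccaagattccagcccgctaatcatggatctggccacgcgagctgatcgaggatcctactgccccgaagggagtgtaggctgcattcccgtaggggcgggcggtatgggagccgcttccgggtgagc
Both strands were searched. For GATA factors the letters were AGATAA, with T also allowed as the first base and G as the last. For CACC-binding factors such as Klf1 they were CCNCNCCC, which also takes in GC-box letters. For NRF1, a factor of respiratory genes, they were the palindrome in capitals that closes the Alas1 sequence. Matches are descriptions of letters and not of binding. Among the 5 windows, CACC letters stood in 5, GATA letters in 1 (Fech) and NRF1 letters in 1 (Alas1). Of all 33469 windows in the table, 46.3% held CACC letters, 30.3% GATA letters and 0.852% NRF1 letters. These are not like sets, since all windows include ones inside genes, such as those of Alas2 and Uros. In the 5 windows, 54.4% to 65.6% of the 250 bases before the start were G or C. No background of like base content was taken.

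Each of the 9 genes was lower in the skull than in the limb. Intensities are MAS5 signals in arbitrary units, scaled between arrays, and a probe set was called at a Benjamini-Hochberg adjusted p below 0.05 in limma and a difference of at least 2-fold. On this rule 8 of the 11 probe sets were called lower in the skull, from 7 genes, and 0 were called higher. Of all probe sets, 3.36% were called lower and 2.89% higher. By the adjusted p alone 11 of 11 were lower, against 11.9% of all probe sets. In 11 of 11 the highest skull array lay below the lowest limb array, against 11.8% of all probe sets. The median log2 difference (skull minus limb) of the 11 was -1.24, and that of all probe sets -0.01. Values of different probe sets were not compared as levels, since each probe set has its own brightness.

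**Figure D1:**
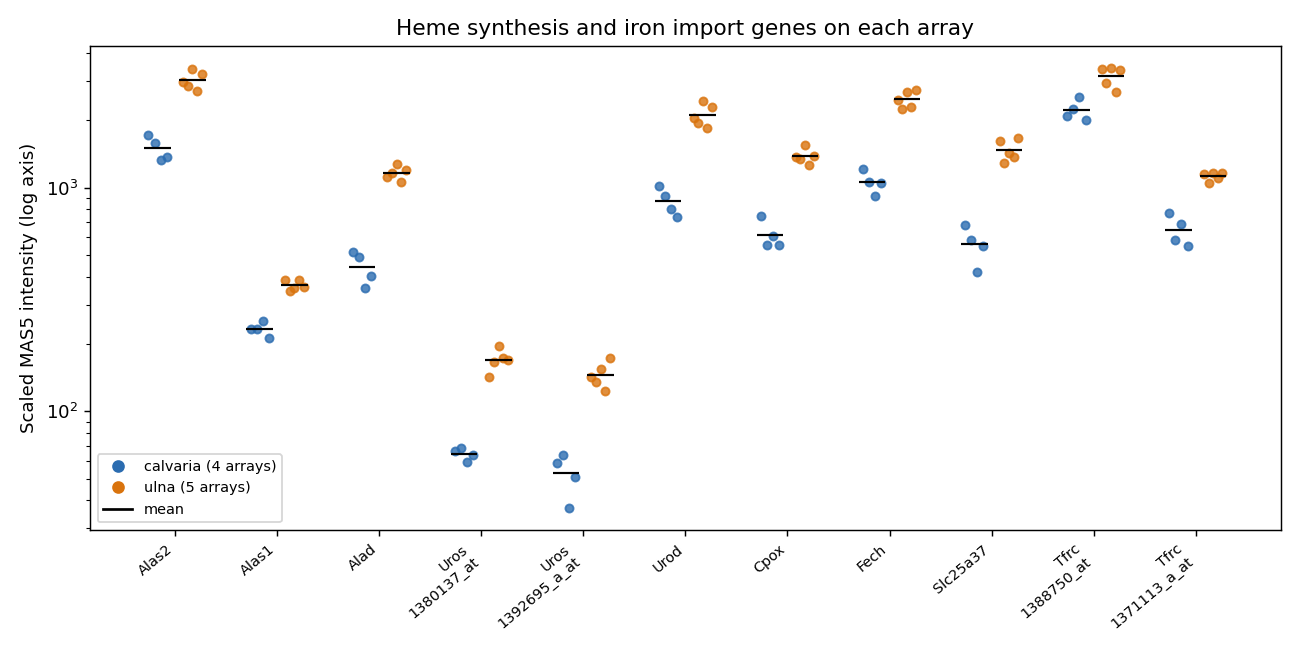
Scaled MAS5 intensity (log axis, arbitrary units) of the 11 probe sets on each array, with calvaria in blue (4 arrays), ulna in orange (5 arrays) and group means as lines. In each probe set the highest calvaria array lies below the lowest ulna array; the gap is smallest for the Tfrc probe set 1388750_at, where calvaria 3 reached 2558 and ulna 4 was at 2681.

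The erythroid synthase Alas2 (probe set 1367985_at) read 1729.7, 1581, 1336 and 1377 on calvaria 1 to 4, and 2986, 2840.1, 3400.3, 2714 and 3241 on ulna 1 to 5. All skull arrays lay below all limb arrays, with calvaria 1 and 2 the nearest to the limb. The means were 1506 ± 184 (SD, n = 4) and 3036 ± 283 (SD, n = 5), 2.02-fold higher in the limb. The log2 difference was -1.01 ± 0.10 (SE; 95% interval -1.25 to -0.78; limma adjusted p = 0.000187). It lay just past the 2-fold threshold and moved to between -0.99 and -0.95, with an adjusted p of at most 0.011, when the arrays were not scaled further, quantile-normalised, weighted or blocked, and without calvaria 3, calvaria 4, ulna 3 or ulna 5.

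The ubiquitous synthase Alas1 (1367982_at) read 233, 232, 254 and 214 on the skull arrays, and 387, 344, 356, 387 and 359.7 on the limb arrays. The groups did not overlap, and the spread within each was small. Means were 233 ± 16.4 (SD, n = 4) and 367 ± 19.4 (SD, n = 5), 1.57-fold higher in the limb. Its log2 difference of -0.65 ± 0.06 (SE; 95% interval -0.79 to -0.51) passed the adjusted p in limma (0.000124) but was under 2-fold, so Alas1 was not called. Its interval did not reach 2-fold.

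Alad, the cytosolic enzyme that joins 2 aminolevulinate molecules into porphobilinogen, read 517, 492, 356 and 402 in the skull and 1113, 1166, 1284, 1058 and 1201 in the limb. The brightest skull array was well under the dimmest limb array. It was 2.64-fold higher in the limb, a log2 difference of -1.41 ± 0.11 (SE; limma adjusted p = 6.7e-05).

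Uros, uroporphyrinogen III synthase, closes the ring in the right isomer. Its probe set 1380137_at read 66.3, 68.4, 59.6 and 63.7 in the skull and 142, 167, 196, 173 and 169 in the limb. The dimmer one, 1392695_a_at, read 59.0, 64.0, 37.1 and 51.1 in the skull and 142, 136, 155, 123 and 173 in the limb. Both probe sets of the gene gave separate groups, and calvaria 3 was the lowest skull array on both. Their log2 differences were -1.39 ± 0.09 and -1.48 ± 0.17 (SE), and both were called (limma adjusted p = 3.1e-05 and 0.000298).

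Urod, uroporphyrinogen decarboxylase, read 1019, 918, 804 and 737 on calvaria 1 to 4. On ulna 1 to 5 it read 2062, 1941, 2456, 1845 and 2306. The lowest limb array was above the highest skull array by a wide margin, and the limb mean was 2.44-fold the skull mean (log2 difference -1.29 ± 0.12, SE; limma adjusted p = 0.000112).

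Cpox, coproporphyrinogen oxidase of the mitochondrial intermembrane space, read 745, 555, 609.9 and 553 in the skull and 1369, 1338, 1553, 1264 and 1385 in the limb. Calvaria 1 was the highest of the skull arrays and still below each limb array. The gene was 2.24-fold higher in the limb (log2 difference -1.17 ± 0.10, SE; limma adjusted p = 8.3e-05).

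Fech, ferrochelatase, the last enzyme of the chain, read 1217, 1060.5, 916 and 1047 in the skull and 2478, 2262, 2692, 2297 and 2726 in the limb. Again no skull array reached a limb array. The limb mean was 2.35-fold the skull mean (log2 difference -1.24 ± 0.10, SE; limma adjusted p = 5.9e-05).

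The mitochondrial iron importer Slc25a37 read 678, 587, 422 and 550.3 in the skull, and 1626, 1294, 1424, 1376 and 1668 in the limb. Calvaria 3 was the lowest array and the groups stood apart. It was 2.64-fold higher in the limb, with a log2 difference of -1.42 ± 0.14 (SE; limma adjusted p = 0.000143).

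Tfrc brings transferrin-bound iron into the cell, and its 2 probe sets differed less between the sites than those of the 7 genes called. Its brighter probe set 1388750_at read 2085, 2259.7, 2558 and 2004 in the skull and 3391, 2942, 3436, 2681 and 3346 in the limb. The second one, 1371113_a_at, read 773, 586, 688 and 546 in the skull and 1155, 1051, 1163, 1104 and 1159 in the limb. Groups did not overlap on either. The limb was 1.42-fold and 1.74-fold higher, with log2 differences of -0.50 ± 0.11 and -0.81 ± 0.10 (SE; limma adjusted p = 0.00931 and 0.00048). Neither was called, as both were under 2-fold, and the difference between the 2 probe sets was not tested.

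**Figure D2:**
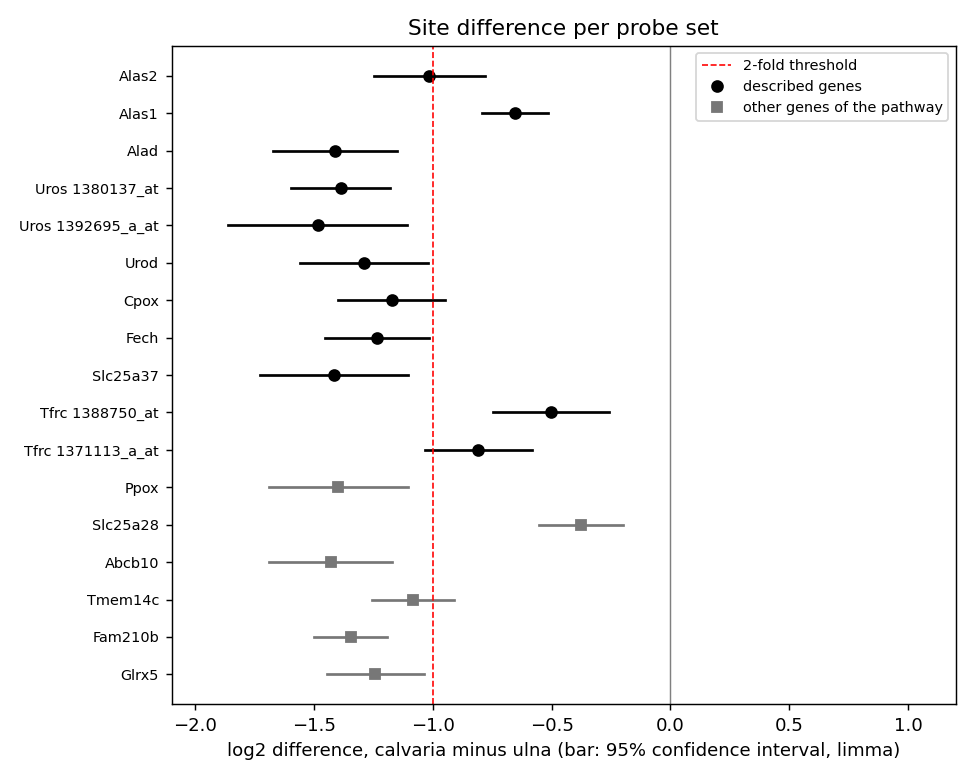
Log2 difference, skull (calvaria) minus limb (ulna), of the 11 probe sets (black circles) and 6 other genes of the pathway (grey squares), with 95% confidence intervals from limma. The dashed line marks 2-fold; Alas1, both Tfrc probe sets and Slc25a28 lie between it and 0, and Alas2 lies on it at -1.01.

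Ordered by the size of the difference, Slc25a37, Alad and Uros came first (-1.42, -1.41 and -1.39 for the brighter Uros probe set), then Urod (-1.29), Fech (-1.24), Cpox (-1.17) and Alas2 (-1.01), with Alas1 (-0.65) and the brighter Tfrc probe set (-0.50) last. By its second probe set (-0.81) Tfrc would stand before Alas1. The 95% intervals of neighbours in the first 7 overlap. Replicate spread was a coefficient of variation of 4.30% to 22.3% within a group over the 11 probe sets. Arrays of a site tended to keep their place across the members. Calvaria 1 was the highest skull array on 7 of 11 probe sets, while calvaria 3 was the lowest on 6 and calvaria 4 on 5. Among the limb arrays ulna 3 was the highest on 7 and ulna 4 the lowest on 6. The same limb arrays were highest and lowest on bright genes of other kinds, such as Col1a1, Bglap and S100a8, but not on Ibsp. How often other probe sets keep this order was not counted.

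Whether erythroid and ubiquitous forms differed by the same amount was tested within arrays, as the difference of 2 log2 intensities on each array, by exact two-sided permutation over the 126 ways to split 9 arrays into 4 and 5. The smallest p this design gives is 0.00794. Alas2 minus Alas1 was 2.89, 2.77, 2.39 and 2.69 on calvaria 1 to 4, and 2.95, 3.04, 3.26, 2.81 and 3.17 on ulna 1 to 5. Calvaria 1 overlapped the limb arrays and calvaria 3 was the lowest. The mean was 2.68 ± 0.21 (SD, n = 4) in the skull and 3.05 ± 0.18 (SD, n = 5) in the limb. The site difference of the erythroid form exceeded that of the ubiquitous form by 0.36 on the log2 scale (-0.36, skull minus limb; exact permutation p = 0.0317). Without single arrays the difference stayed between -0.43 and -0.26. Its p was then 0.0357 without calvaria 1 and 0.0286 without ulna 4, and 0.0536 to 0.0714 without each of the others (exact permutation), where fewer arrays leave fewer splits and a larger smallest p.

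For the mitoferrins the contrast was wider. Slc25a28, the mitoferrin of other tissues, read 156, 157, 164 and 169 in the skull and 208, 233, 207, 226 and 178 in the limb. The groups did not overlap, but the gap was small, and the log2 difference of -0.38 ± 0.08 (SE; limma adjusted p = 0.00834) was not called. Slc25a37 minus Slc25a28 was 2.12, 1.90, 1.36 and 1.70 in the skull and 2.97, 2.48, 2.78, 2.61 and 3.23 in the limb. The sites did not overlap, and the difference of -1.04 had the smallest p the design gives (exact permutation p = 0.00794). On ulna 5 alone, the limb array with no conflict in its labels, both contrasts (3.17 and 3.23) lay above each skull array.

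The other members were set against Alas1 in the same way, 8 contrasts in all with Alas1 shared among them. Relative to Alas1, the skull was lower for Slc25a37 (-0.76), Alad (-0.76), Uros (-0.73), Urod (-0.64), Fech (-0.58) and Cpox (-0.52), each with no overlap between the sites and a Benjamini-Hochberg adjusted exact permutation p of 0.0106. For Alas2 the value was -0.36 (adjusted exact permutation p = 0.0363). Tfrc minus Alas1 was 0.15 with the brighter Tfrc probe set, with overlapping sites and an adjusted exact permutation p of 0.151, and -0.0034 with the mean of both, so no direction was settled. So 7 of 8 genes passed the threshold against Alas1, each lower in the skull relative to it. Alas1 itself differed by -0.65, so an unchanged gene would stand above it. How often other genes pass this contrast was not counted.

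Whole bone holds marrow, and its red cell precursors were followed by a list of 29 erythroid marker genes, of which 21 were measured. Of these, 20 were called lower in the skull and 0 higher, against 4.31% of all genes called lower (1 probe set a gene). Their median log2 difference was -1.70, beside -0.02 for all genes. Their summed intensity lay between 6503 and 9454 on the skull arrays and between 19596 and 23406 on the limb arrays. Defining markers were present at both sites: Klf1, the erythroid transcription factor, had mean intensities of 419 and 1490.1, and Gata1 145 and 505. In bulk RNA, fewer cells of a type and less RNA per cell cannot be told apart.

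The members were then set against the mean of the 21 markers within each array, 9 contrasts that share the marker mean. Relative to the markers, Tfrc was 1.11 higher in the skull on the log2 scale, Alas1 0.96, Alas2 0.60, Cpox 0.44 and Fech 0.38. In these 5 the sites did not overlap (Benjamini-Hochberg adjusted exact permutation p = 0.0143 for each). For Urod the value was 0.32, for Uros 0.22, for Alad 0.20 and for Slc25a37 0.20, with overlapping sites and adjusted exact permutation p from 0.0595 to 0.175. Thus 5 of the 9 genes were less far below the limb than the mean of the erythroid markers. The markers differed by -1.61 on average and the median of all genes was -0.02. An unchanged gene would therefore also stand above the markers, and how often other genes pass this contrast was not counted. The count rests on the marker list, as it was 2 (Tfrc and Alas1) with the globins added to the markers. Several of those globins are poor readings. In skull and limb, mean intensities were 8.14 and 23.3 for Hbe1, 15.2 and 21.2 for Hbe2, and 4.82 and 3.62 for Hbg1. Hbz (1.31 and 1.14) lay under the intensity floor of 2.51, and Hbb (6699 and 6271) was near the top of the scale. Without single arrays the differences of these 5 genes kept their direction, from 0.49 to 0.66 for Alas2 and from 0.88 to 1.24 for Tfrc. The count was then 8 without calvaria 4. Without ulna 2, ulna 3, ulna 4 or ulna 5 it was 0, but there the smaller design gave 5 separated genes of 9 an adjusted exact permutation p of 0.0514, so that this count says nothing about their stability.

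**Figure D3:**
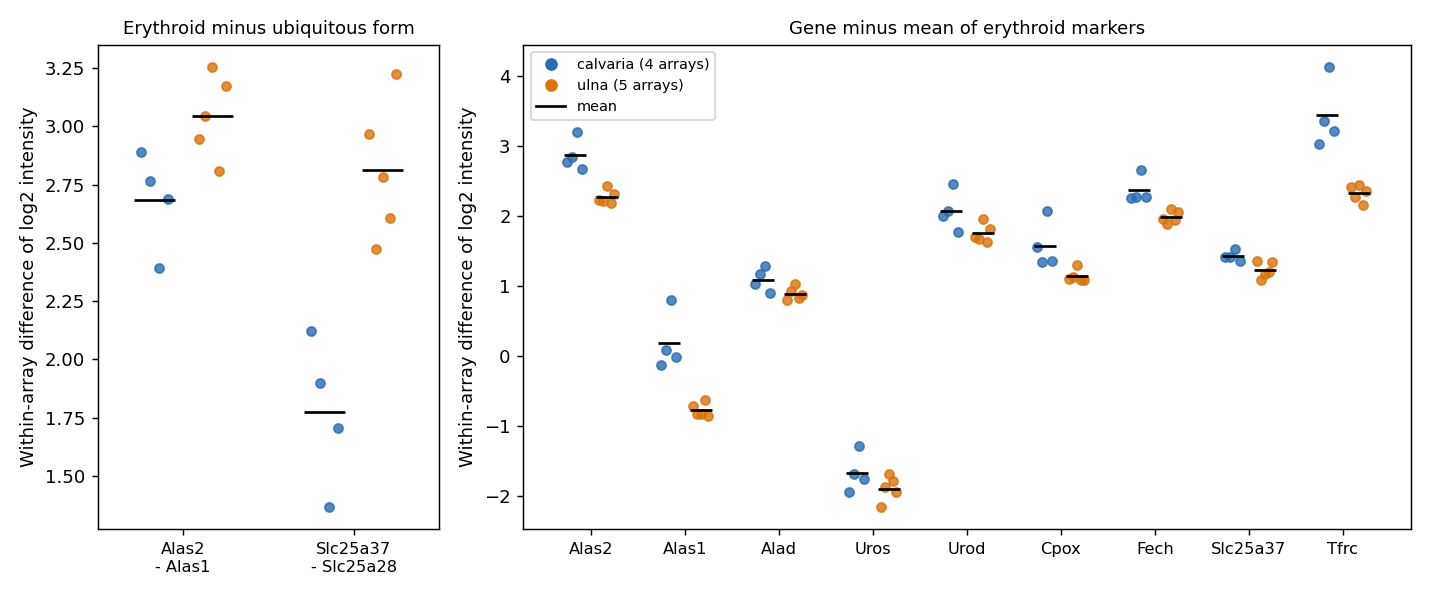
Differences of log2 intensity within each array, calvaria in blue (4 arrays), ulna in orange (5 arrays), lines at the means. Left, erythroid minus ubiquitous form, where Alas2 minus Alas1 overlaps between the sites and Slc25a37 minus Slc25a28 does not; right, each gene minus the mean of 21 erythroid markers, where Tfrc (3.44 against 2.33) shows the widest gap.

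The markers were also read by brightness. The 3 markers whose limb intensity was within a factor of 1.5 of that of Alas2, Ahsp, Slc4a1 and Car1, differed by -1.20 to -1.11. The 18 other markers differed by -2.11 to -0.71. At the small end of that range was Sptb (-0.71), a dim probe set with a limb mean of 26.0, which was the 1 marker not called (limma adjusted p = 0.558). Klf1, one of the brighter markers, differed by -1.84. The beta globin Hbb, at 6699 and 6271, was near the top of the scale, and its difference of 0.11 had a limma adjusted p of 0.689. The alpha globin Hba-a3, at 1835 and 3482, differed by -0.93 (limma adjusted p = 0.000165), although copies of the alpha globin genes are nearly alike and may share this signal. The part of signal compression in the smaller differences of bright genes was not tested.

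Other cell types moved with the sites too, and their part in the members' differences was not tested. Summed proliferation markers were 5543 to 6660 in the skull and 8550 to 10149 in the limb, with 10 of 11 genes lower at the adjusted p alone (16.6% of all genes) and a median of -0.77. Neutrophil markers summed to 8845 to 10969 and 14274 to 18827, with 3 of 5 called lower and 5 of 5 lower at the adjusted p alone. Skeletal muscle markers summed to 96.5 to 145 in the skull and 9351 to 23503 in the limb, with 11 of 11 called lower. Osteoclast markers went the other way, at 9053 to 13182 in the skull and 3236 to 4084 in the limb, with 5 of 5 called higher. The 10 housekeeping genes of the mitochondrion, such as Cs, Vdac1 and Cox4i1, had a median of -0.11, with 0 of 10 past the adjusted p in limma and 2 of 10 at an unadjusted p below 0.05. The 3′ to 5′ log2 ratio of the GAPDH control, a sign of RNA quality, was 0.28 to 0.59 in the skull and 0.21 to 0.37 in the limb. That of beta-actin was 0.75 to 1.04 and 0.57 to 0.86. Calvaria 3 and 4 had the highest ratios on both controls (GAPDH 0.59 and 0.54, beta-actin 1.04 and 1.02). They were also the lowest skull arrays on 6 and 5 of the 11 member probe sets, and the part of RNA quality was not tested.

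A further enzyme of the chain, Ppox, protoporphyrinogen oxidase, read 70.9, 63.5, 91.9 and 95.6 in the skull and 197, 199, 239.7, 205 and 206 in the limb. Its limb arrays lay more than 2-fold above each skull array, and the log2 difference was -1.40 ± 0.13 (SE; limma adjusted p = 0.000112). Of the 8 enzymes of heme synthesis described here, 7 were called lower in the skull, and Alas1 was not.

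Of 27 genes of mitochondrial transport and iron-sulfur cluster assembly, 24 were measured. In the skull 5 were called lower (4.31% of all genes) and 0 higher (3.47%), and 12 were lower by the adjusted p alone (16.6% of all genes), with a median of -0.39. Abcb10, an inner membrane transporter that stabilises mitoferrin-1, differed by -1.43 ± 0.11 (SE), its skull arrays reading 375 to 540.3 and its limb arrays 1136 to 1458. Fam210b, a mitochondrial protein of erythroid iron supply, differed by -1.35 ± 0.07, Glrx5, a glutaredoxin of iron-sulfur cluster assembly, by -1.24 ± 0.09, and Tmem14c, which serves porphyrin transport, by -1.08 ± 0.08 (SE). These 4 had limma adjusted p from 1.9e-05 to 6.3e-05. The fifth gene called, Slc25a38, the glycine carrier for heme synthesis, differed by -1.14 and was named after its values were seen.

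Genes of iron uptake, storage and regulation did not move one way. Of 25 listed, 20 were measured, 1 was called lower and 5 higher in the skull, against 4.31% and 3.47% of all genes, and the median was -0.08. Higher in the skull were the ferroxidase ceruloplasmin (Cp), at 1.53 ± 0.17 (SE), with skull arrays of 572 to 998 and limb arrays of 192 to 281, and its membrane-bound relative hephaestin (Heph), at 1.41 ± 0.14. The metal importer Slc39a14 (1.09 ± 0.13) and Hfe, a partner of the transferrin receptor (1.02 ± 0.12), were just past 2-fold. The limma adjusted p of these 4 was 0.000152 to 0.000414. Hfe fell short of 2-fold without calvaria 2 (0.93) and Slc39a14 without calvaria 3 (0.96). The remaining 2 called genes, chosen after their values were seen, were the ferrireductase Steap2 (1.24) and transferrin receptor 2 (Tfr2, lower in the skull, with means of 43.1 and 156), on which calvaria 1 read 80.8 and the other skull arrays 28.7 to 32.4.

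Among 14 genes of heme breakdown, binding and export, 5 were called lower (4.31% of all genes) and 1 higher (3.47% of all genes), with a median of -0.28. The single gene called higher is near that background. Haptoglobin (Hp), which binds free hemoglobin, differed by -1.70 ± 0.18 (SE), biliverdin reductase B (Blvrb) by -1.28 ± 0.16, the porphyrin exporter Abcg2 by -1.24 ± 0.20 and the heme-binding protein Hebp1 by -1.17 ± 0.09, with limma adjusted p from 4.8e-05 to 0.00235. Calvaria 1 was the highest skull array on Hp, at 365 against 178 to 218 on the others. Hmox1, the inducible heme oxygenase, read 229.9 to 268 in the skull and 199 to 305 in the limb, and its difference of -0.08 did not pass (limma adjusted p = 0.747). The other 2 called, named after their values were seen, were dim: Bach1 (-2.08, mean intensities 3.40 and 16.1) and Slc46a1 (1.91, 27.9 and 7.62). The call of Slc46a1 ended with a pseudocount of 16, without calvaria 2 and without calvaria 3.

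**Figure D4:**
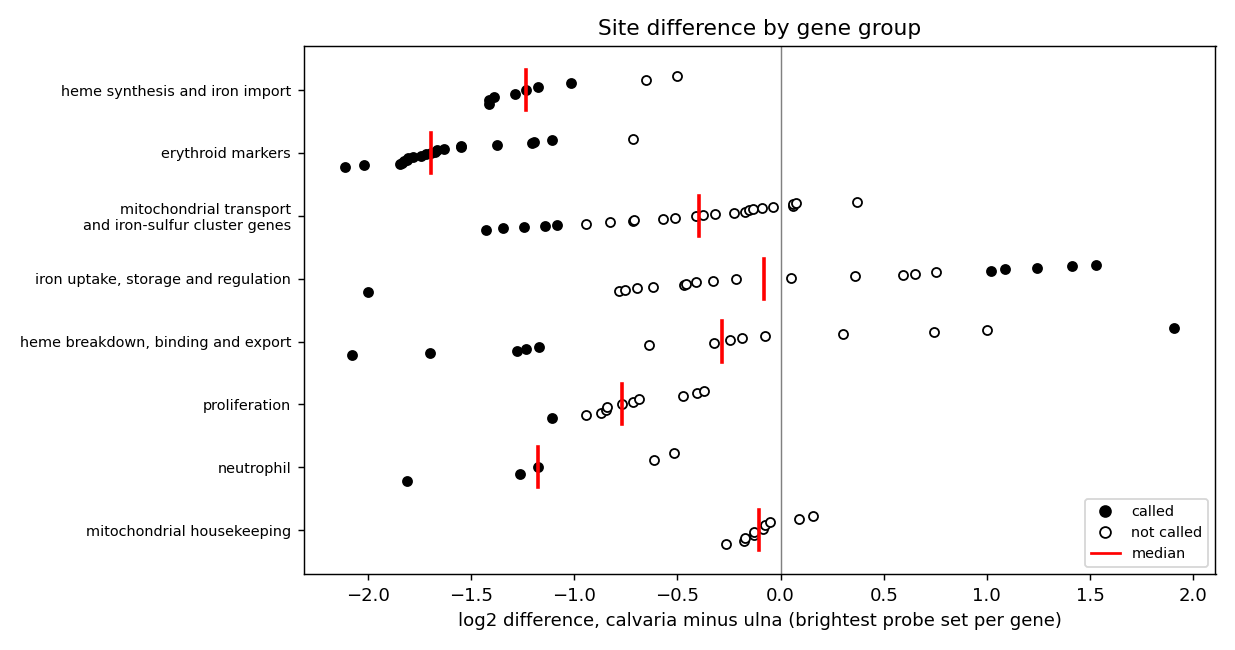
Log2 difference, skull (calvaria) minus limb (ulna), of each measured gene in 8 gene groups (1 probe set a gene), filled where called and open where not, with the group median in red. The heme synthesis and iron import genes lie between -1.42 and -0.50, the erythroid markers mostly below them, the mitochondrial housekeeping genes near 0, and the iron handling genes on both sides of 0.

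The labels of ulna 1 to 4 were put to a last check by taking ulna 5 as the only limb array, a choice made after the values were seen, with the lone array assumed to vary like the skull arrays. All 11 member probe sets were lower in the skull, Alas2 by -1.11. Calls are not given for this setting, since 1 limb array has no spread of its own.

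By their profile over the 9 arrays, the genes most like Alas2 were ranked among 20825 other probe sets that name 1 gene. The measure was the root mean square difference of centred log2 intensities, which takes in the size of the site difference. The first 5 were the mitotic kinase Aurka (0.07), Tmem14c (0.07), the centromere protein Cenpw (0.07), the ubiquitin-conjugating enzyme Ube2c (0.07) and the membrane protein Prom1 (0.08), all in log2 units. Fech (rank 70), Cpox (90) and Urod (143) followed at some distance. The second Tfrc probe set stood at rank 271, Alad at 469, Slc25a37 at 722 and Alas1 at 787. The Uros probe sets stood at 591 and 1075, and the brighter Tfrc probe set at 1389. These ranks depend largely on the size of the site difference, since the centred values were not scaled and 2 groups make up the 9 arrays. The first 5 genes differed by -1.08 to -0.98, near Alas2 at -1.01, and Alad by -1.41. The ranks do not show how far genes vary together within a site.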

How the data were processed

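Per the labels, total RNA of bone ground in liquid nitrogen was extracted through a phenol reagent and columns, and labelled after 1 round of amplification for Affymetrix rat arrays. The authors deposited linear MAS5 intensities, 1 for each probe set on each array, scaled to a common trimmed mean (100.027 to 100.03 with 2% of the probe sets removed at each end). Array medians lay between 33.0 and 36.6. The arrays' number limits the precision. No column was left unused, and no 2 arrays were identical.

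Of 31099 probe sets, 57 were controls and 31042 were tested. The platform annotation gave 20826 of these 1 gene symbol, 436 several and 9780 none. By gene identifier 20758 matched RefSeq GRCr8, which was used for names. Each array was divided by its median and multiplied by the mean median. Intensities were floored at the 10th percentile (2.51) and taken to log2, so differences of genes at the floor are understated. Sites were compared over all probe sets in limma 3.58.1 (R 4.3.3; lmFit, eBayes with an intensity trend), two-sided, with Benjamini-Hochberg adjustment. The study's own thresholds, an adjusted p of 0.05 and 2-fold, were used. The procedure was tested on simulated data. Gene lists count 1 probe set a gene, the brightest on the log2 scale. Contrasts between genes used that probe set within each array, with exact permutation over the arrays.

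Genes were named by rule. These were the members, Slc25a28 and Ppox, the called genes of each pathway list (at most 4, by adjusted p), and the 5 genes most like Alas2. Other genes with values, markers included, were named after their values were seen. Members and lists were chosen with earlier results of these data known. The alternatives were other scaling, floors, a pseudocount, an intensity filter, array weights, no trend, the methods' t-test, a replicate block, single arrays left out, the mean of a gene's probe sets and globins among the markers. Taking ulna 5 as the only limb array was added after the data were seen.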

Additional observations from a re-analysis of the deposited data

Results flagged for a closer look

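Sets of 4 or 5 values within a site were checked for 1 array far from the others by Dixon's test, which chance passes about 1 time in 20. Of 88 such sets 4 were marked. Ppox read 239.7 on ulna 3, against 197 to 206 on the other limb arrays. Hephaestin (Heph) read 245 on calvaria 3 and 191 to 198 on the other skull arrays. Cpox minus the erythroid marker mean was 1.30 on ulna 3, with the other limb arrays at 1.08 to 1.13. Fech minus that mean was 2.65 on calvaria 3, with the other skull arrays at 2.26 to 2.28. Calvaria 3 also had the lowest summed erythroid markers (6503) and the highest summed osteoclast markers (13182) of the skull arrays.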

How the results depend on the processing

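Each of the 11 probe sets stayed lower in the skull in the alternatives run, and 7 or 8 were called, except with ulna 5 as the only limb array. With that array alone 2 were called and 2 passed the adjusted p, Ppox was not called (0 other heme enzymes lower), 1 gene of iron handling was higher, and 2 genes of heme breakdown were lower and 0 higher. Over all probe sets it gave 420 lower and 362 higher, against 1042 and 896. A pseudocount of 16 gave 595 and 437, and probe sets above the median intensity 663 and 588; the single gene of heme breakdown called higher, Slc46a1, was lost in both (0), and without single arrays that count was 0 to 2. Hfe fell to 0.79 with the pseudocount.

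Contrasts within arrays kept fewer calls. Alas2 minus Alas1 ranged from -0.43 to -0.26 without single arrays. Members past the threshold against the erythroid marker mean numbered 8 after quantile normalisation, 2 with globins added and 0 to 8 without single arrays, where fewer splits raise the smallest p, so that a count of 0 says nothing about stability. With globins added Alad (-0.0432), Uros (-0.0189) and Slc25a37 (-0.0463) changed sign, as did Tfrc minus Alas1 with the mean of both Tfrc probe sets (-0.0034). The 6 measured globins differed by -0.52 on average and the 21 markers by -1.61, so adding globins makes the mean difference of the list smaller. The second Tfrc probe set (-0.81) differed more than Alas1 (-0.65), and the brighter one (-0.50) less.

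The labels number arrays alike at both sites, but do not state whether same-numbered arrays share a pool of rats. Deviations of same-numbered arrays correlated over probe sets at 0.04, -0.01, -0.01 and 0.04 for numbers 1 to 4. Those of arrays with different numbers correlated at -0.04 to 0.02. All these values are near 0 and do not settle whether the arrays are paired. With the replicate block Alas2 minus Alas1 was -0.33 and Slc25a37 minus Slc25a28 -0.94, both with an exact sign-flip p of 0.125, the smallest that 4 pairs give; 0 members then passed against Alas1 and 0 against the markers. Under the block in limma 7 of the 11 probe sets were called, Alas2 (-0.99) being lost.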
